A study of Homo sapiens with 8 samples.

Results

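The genes described here are 10 effector genes of eosinophils and basophils: EPX, PRG2, PRG3, CLC, RNASE2, RNASE3, HDC, IL1RL1, PTGDR2 and CPA3. They were taken by symbol out of 22627 gene symbols measured by RNA sequencing in NB4, a cell line from human acute promyelocytic leukaemia that matures towards granulocytes under all-trans retinoic acid (ATRA). The groups were NB4 cells with a hairpin against TFEB, a transcription factor of lysosome genes, under 1 µM ATRA (shTFEB ATRA), the same line under ethanol (shTFEB vehicle), and cells with a scrambled hairpin under 1 µM ATRA (shScr ATRA) or ethanol (shScr vehicle), all for 72 h. The labels give 2 samples per group and 8 in all, but the deposited tables hold 1 value per group, so no spread between samples and no test can be given, and every difference is the size of a ratio without a replicate check. The hairpins were delivered by lentivirus, and whether each line was a pool or a clone is not given in the sources used here. The genes were chosen by their FPKM in these same 4 groups, so all ratios and counts below are a description.

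Values are in FPKM, fragment counts scaled to the length of a transcript model and to all mapped fragments, summed over the models of a gene. Ratios are log2 ratios taken after adding 1 FPKM to each value, and the words rose and fell, or past the 2-fold mark, are used where a ratio reached 1 in size. That mark was applied to the 11052 symbols whose 4 group values averaged 1 FPKM or more, among them 9 of the 10 genes. CPA3, which encodes the carboxypeptidase of mast cell granules, was listed at 0 in shTFEB ATRA, shScr ATRA and shScr vehicle cells and at 0.0222 FPKM in shTFEB vehicle cells, and was not compared. The steps between the lowest values put the depth at 0.911 of that of shScr vehicle cells in shTFEB ATRA, at 1.17 in shTFEB vehicle and at 1.05 in shScr ATRA cells. TFEB itself stood at 8.44 FPKM in shTFEB ATRA and 19.4 FPKM in shScr ATRA cells, but at 1.35 FPKM in shTFEB vehicle and 1.203 FPKM in shScr vehicle cells. TFEB mRNA thus does not bear out the hairpin label under vehicle, and that group is called "labelled shTFEB vehicle".

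Eosinophils and basophils are granulocytes that store toxic proteins and mediators in secretory granules. Eosinophil granules hold the major basic protein in a crystalline core, a peroxidase and ribonucleases, while basophils and mast cells make histamine. Both lineages arise from progenitors that use GATA transcription factors, and they respond to interleukins and prostaglandins of allergic inflammation.

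The granule protein genes PRG2 and RNASE2 were the most abundant of the 10 under vehicle. PRG2 (hg19 chromosome 11, 57154834 to 57158130), the major basic protein of the eosinophil granule core, stood at 401.9 FPKM in shTFEB ATRA cells, 1548 FPKM in labelled shTFEB vehicle cells, 69.8 FPKM in shScr ATRA cells and 1094 FPKM in shScr vehicle cells. It was the 56th and the 88th most abundant of the compared genes in the labelled shTFEB vehicle and shScr vehicle groups, and made up 83.8% and 85.5% of the summed FPKM of the 10 genes there. PRG2 fell under ATRA in both lines, with a log2 ratio of −1.94 in shTFEB and −3.95 in shScr cells. Between the lines it was close under vehicle (log2 ratio 0.50), whereas under ATRA the shTFEB level was 5.76-fold that of shScr cells. In bulk RNA, fewer cells of a type and less RNA per cell cannot be told apart.

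EPX (chromosome 17, 56270089 to 56282535), the eosinophil peroxidase, separated the lines under either treatment. Its level was 42.8 FPKM in shTFEB ATRA, 82.8 FPKM in labelled shTFEB vehicle, 3.79 FPKM in shScr ATRA and 5.78 FPKM in shScr vehicle cells. ATRA cells held 51.7% of the vehicle level in shTFEB and 65.7% in shScr cells, and neither log2 ratio (−0.94 and −0.50) reached the mark. The difference between the lines was larger, with log2 ratios of 3.19 under ATRA and 3.63 under vehicle. MPO, the peroxidase of neutrophil granules, whose GENCODE transcript is 73.7% identical to that of EPX over aligned bases and shares a longest exact run of 44 bases with it, did not follow the same order. MPO stood at 594 FPKM in shTFEB ATRA, 2462 FPKM in labelled shTFEB vehicle, 662 FPKM in shScr ATRA and 3871 FPKM in shScr vehicle cells.

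**Figure D1:**
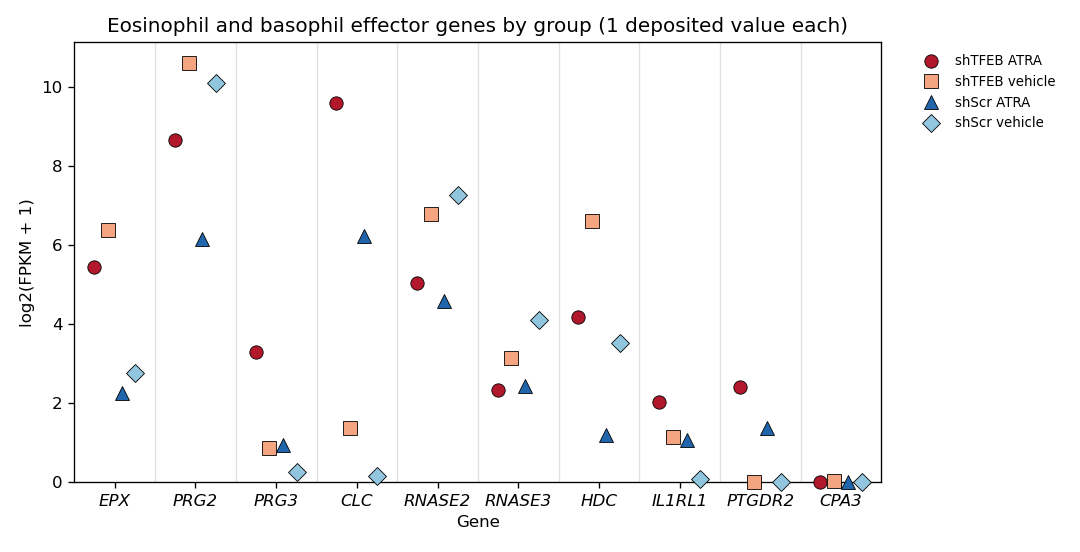
Level of each of the 10 genes in the 4 groups as log2(FPKM + 1), with 1 deposited value per point and no error. EPX and HDC are higher in both groups labelled shTFEB than in both shScr groups, while CLC and PTGDR2 are higher in both ATRA groups than in both vehicle groups.

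PRG3 (chromosome 11, 57144242 to 57148623), a homologue of the major basic protein, lies 6210 bases from PRG2 but ran the other way under ATRA. Its level was 8.76 FPKM in shTFEB ATRA cells, 0.823 FPKM in labelled shTFEB vehicle cells, 0.922 FPKM in shScr ATRA cells and 0.193 FPKM in shScr vehicle cells. Only shTFEB ATRA cells stood clearly above 1 FPKM. PRG3 rose under ATRA in shTFEB cells (log2 ratio 2.42, 10.6-fold without the added 1 FPKM), and the log2 ratio of 0.69 in shScr cells stayed under the mark although the plain ratio was 4.77. Under ATRA it was 9.50-fold higher in shTFEB than in shScr cells. The transcripts of PRG2 and PRG3 share no exact run longer than 19 bases.

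CLC (chromosome 19, 40221893 to 40228669), the protein that forms Charcot-Leyden crystals in eosinophils and basophils, had the widest range of the 8 genes above 0 in every group. It stood at 770.6 FPKM in shTFEB ATRA cells, 1.58 FPKM in labelled shTFEB vehicle cells, 74.2 FPKM in shScr ATRA cells and 0.1198 FPKM in shScr vehicle cells. That placed it 101st of the compared genes in shTFEB ATRA and 863rd in shScr ATRA cells, where it held 60.0% and 41.2% of the summed FPKM of the 10 genes. CLC was 10.4-fold higher in shTFEB ATRA than in shScr ATRA cells and 13.2-fold higher under vehicle. The vehicle ratio is uncertain, since the shScr value was near 0. Its deposited bounds were 0.0203 to 0.203 FPKM, against 0.847 to 1.63 FPKM in labelled shTFEB vehicle cells. Levels differed by a factor of 487 between shTFEB ATRA and labelled shTFEB vehicle cells. The pseudocount compresses the vehicle ratio to 1.21 on the log2 scale.

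The sequences upstream of CLC and PRG3 are shown because both genes were highest in shTFEB ATRA cells. They are the 250 bases before the RefSeq start (GRCh38.p14, minus strand), 5′ to 3′, at chr19:39738030-39738279 and chr11:57381151-57381400. Capitals mark matches on either strand to a GATA motif (AGATAA or AGATAG, and likewise TGATAA or TGATAG), to a retinoid receptor core motif (AGGTCA or GGGTCA) or to a CEBP motif (TTGCNNAA), none of which overlap in the windows shown.
CLC: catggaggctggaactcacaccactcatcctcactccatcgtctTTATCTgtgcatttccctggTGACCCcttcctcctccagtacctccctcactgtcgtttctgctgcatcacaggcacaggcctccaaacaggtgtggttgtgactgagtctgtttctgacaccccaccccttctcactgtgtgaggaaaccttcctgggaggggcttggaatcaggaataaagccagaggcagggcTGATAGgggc
PRG3: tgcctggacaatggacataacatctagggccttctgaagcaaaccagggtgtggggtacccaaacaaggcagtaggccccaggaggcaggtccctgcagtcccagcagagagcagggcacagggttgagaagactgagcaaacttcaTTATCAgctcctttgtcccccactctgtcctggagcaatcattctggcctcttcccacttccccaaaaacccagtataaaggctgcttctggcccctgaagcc
CLC holds AGATAA on the minus strand 206 to 201 bases before the start, TGATAG 10 to 5 bases before it, and GGGTCA on the minus strand at 186 to 181. PRG3 holds TGATAA on the minus strand at 103 to 98. Of all 35116 windows of this length, 22.3% hold a GATA motif, 22.4% a retinoid receptor core motif and 9.05% the CEBP motif. Among the 10 genes, 7 had a window in the table (8 windows, since IL1RL1 has a pair of starts), and 4 of these 8 windows held a GATA motif, 2 a retinoid receptor core motif and 3 the CEBP motif. The GATA motif was in windows of CLC, PRG3, IL1RL1 and CPA3, and the CEBP motif in those of RNASE2, RNASE3 and CPA3. CPA3 was not compared, and RNASE2 and RNASE3 are close copies. The HDC window had AGGTCA at 49 to 44 bases before the start and no GATA motif. EPX, PRG2 and PTGDR2 had no upstream window and were not searched for motifs. A match is a run of letters and not a binding site.

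Neither ribonuclease gene passed the mark between the lines. RNASE2 (chromosome 14, 21423630 to 21424594), the eosinophil-derived neurotoxin, stood at 32.1 FPKM in shTFEB ATRA, 109 FPKM in labelled shTFEB vehicle, 23.0 FPKM in shScr ATRA and 153 FPKM in shScr vehicle cells. It fell under ATRA in both lines, with log2 ratios of −1.73 in shTFEB and −2.68 in shScr cells. Its log2 ratios between the lines were 0.46 under ATRA and −0.48 under vehicle, neither past the mark. RNASE3 (21359562 to 21360507), the eosinophil cationic protein, stood at 4.07 FPKM in shTFEB ATRA, 7.83 FPKM in labelled shTFEB vehicle, 4.41 FPKM in shScr ATRA and 16.2 FPKM in shScr vehicle cells. It fell in shScr cells (−1.66) and had a log2 ratio of −0.80 in shTFEB cells. Under vehicle RNASE3 in labelled shTFEB cells was at 48.4% of the shScr level, just short of the mark at −0.96.

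Separate values of these ribonuclease genes are uncertain, because they are close copies. Their GENCODE transcripts were 88.9% identical over 720 aligned bases, with a longest exact shared run of 67 bases, and the counting could have split fragments between them. The pseudogene RNASE2CP, which lies between them, also had FPKM assigned to it, at 3.47 in shTFEB ATRA, 14.4 in labelled shTFEB vehicle, 2.85 in shScr ATRA and 33.1 in shScr vehicle cells. The upstream sequences are shown for the same reason: 192 of 199 aligned bases were identical (96.5%), and both hold the CEBP motif TTGCNNAA in the same context. They lie on the plus strand at chr14:20955237-20955486 and chr14:20891135-20891384 (GRCh38.p14), with the motif in capitals.
RNASE2: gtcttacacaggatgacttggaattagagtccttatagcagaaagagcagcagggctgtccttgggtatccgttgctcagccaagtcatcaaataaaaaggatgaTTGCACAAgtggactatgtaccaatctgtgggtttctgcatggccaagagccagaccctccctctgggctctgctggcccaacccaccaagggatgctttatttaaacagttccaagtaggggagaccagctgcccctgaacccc
RNASE3: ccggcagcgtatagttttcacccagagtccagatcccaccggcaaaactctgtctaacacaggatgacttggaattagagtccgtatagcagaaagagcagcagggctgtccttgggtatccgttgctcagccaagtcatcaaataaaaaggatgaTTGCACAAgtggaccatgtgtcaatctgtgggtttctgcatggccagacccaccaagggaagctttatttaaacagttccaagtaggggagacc
The match ends 138 bases before the start in RNASE2 and 87 bases before it in RNASE3, the aligned sequences being offset. Neither window held a GATA motif or a retinoid receptor core motif.

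HDC (chromosome 15, 50534146 to 50558162), the decarboxylase that makes histamine in basophils and mast cells, resembled EPX between the lines and PRG2 in its direction under ATRA. Its level was 17.0 FPKM in shTFEB ATRA, 96.1 FPKM in labelled shTFEB vehicle, 1.29 FPKM in shScr ATRA and 10.4 FPKM in shScr vehicle cells. HDC fell under ATRA in both lines, with log2 ratios of −2.43 in shTFEB and −2.32 in shScr cells. Without the added 1 FPKM it was 5.66-fold lower under ATRA in shTFEB and 8.08-fold lower in shScr cells. Between the lines its log2 ratio was 2.97 under ATRA and 3.09 under vehicle. SLC27A2, the gene closest to HDC at a distance of 5556 bases, stood at 13.7 and 48.2 FPKM in shTFEB ATRA and labelled shTFEB vehicle cells and at 3.91 and 40.1 FPKM in shScr ATRA and shScr vehicle cells, so the neighbours were not apart alike under vehicle.

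The receptor genes were low in every group. PTGDR2 (chromosome 11, 60618398 to 60623444), the prostaglandin D2 receptor of eosinophils, basophils and type 2 T cells, stood at 4.27 FPKM in shTFEB ATRA and 1.60 FPKM in shScr ATRA cells and was listed at 0 in both vehicle groups, where the deposited upper bounds were 0.00809 FPKM in labelled shTFEB and 0.0095 FPKM in shScr cells. No fold is given against a value listed at 0. Its log2 ratios of ATRA to vehicle were 2.40 in shTFEB and 1.38 in shScr cells, and 0.89 and 0.40 with 5 FPKM added. Under ATRA it was 2.67-fold higher in shTFEB than in shScr cells, which is a log2 ratio of 1.02 and falls under the mark after median-of-ratios (0.99) or upper-quartile (0.97) rescaling of the groups. The model of PTGDR2 overlaps that of CCDC86 by 164 bases, and GENCODE places the genes on opposite strands. Whether the counting used strand is not given in the sources used here. CCDC86 was lower under ATRA in both lines, at 16.9 FPKM in shTFEB ATRA, 54.7 FPKM in labelled shTFEB vehicle, 8.02 FPKM in shScr ATRA and 47.0 FPKM in shScr vehicle cells.

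IL1RL1 (chromosome 2, 102927962 to 102968497), the ST2 receptor for the alarmin interleukin 33, stood at 3.04 FPKM in shTFEB ATRA, 1.21 FPKM in labelled shTFEB vehicle, 1.09 FPKM in shScr ATRA and 0.0614 FPKM in shScr vehicle cells. Without the added 1 FPKM it was 2.80-fold higher in shTFEB ATRA than in shScr ATRA cells and 19.7-fold higher under vehicle. The vehicle ratio is uncertain, since the shScr value was near 0, with bounds of 0.0223 to 0.114 FPKM. On the log2 scale it passed the mark under vehicle alone, with 1.06 against 0.95 under ATRA, and its ATRA responses of 0.87 in shTFEB and 0.97 in shScr cells stayed under it. The shScr response reached the mark after either of those rescalings (1.04 and 1.01).

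IL1RL1 is known to give a long transcript for the membrane receptor and a short transcript for a soluble form. The short model (NM_003856) stood at 1.99 FPKM in shTFEB ATRA, 0.804 FPKM in labelled shTFEB vehicle, 0.680 FPKM in shScr ATRA and 0.0614 FPKM in shScr vehicle cells. The long model (NM_016232) stood at 1.05, 0.407 and 0.405 FPKM in the first 3 of these groups and was listed at 0 in shScr vehicle cells. The short model held 65.5% of the gene's FPKM in shTFEB ATRA, 66.4% in labelled shTFEB vehicle and 62.7% in shScr ATRA cells, so both models went together. The 250 bases upstream of its RefSeq starts are shown because the starts differ in motif content; they lie on the plus strand at chr2:102311313-102311562 and chr2:102337007-102337256 (GRCh38.p14), with GATA motifs in capitals.
IL1RL1, first start: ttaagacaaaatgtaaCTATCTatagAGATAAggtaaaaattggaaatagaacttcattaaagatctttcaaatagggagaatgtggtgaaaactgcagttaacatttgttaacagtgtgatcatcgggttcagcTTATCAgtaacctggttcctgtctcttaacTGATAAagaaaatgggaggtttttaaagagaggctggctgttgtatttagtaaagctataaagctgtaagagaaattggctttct
IL1RL1, second start: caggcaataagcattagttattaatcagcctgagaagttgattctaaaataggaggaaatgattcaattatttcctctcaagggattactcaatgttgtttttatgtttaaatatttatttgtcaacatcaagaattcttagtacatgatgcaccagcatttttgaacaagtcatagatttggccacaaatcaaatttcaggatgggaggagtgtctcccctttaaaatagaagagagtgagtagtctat
The first window held 4 GATA motifs, AGATAG and TGATAA on the minus strand and AGATAA and TGATAA on the plus strand, and the second held no motif of any of the 3 kinds.

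PRG2 also had a pair of models over the same span. NM_001243245 stood at 63.1 FPKM in shTFEB ATRA, 196 FPKM in labelled shTFEB vehicle and 121 FPKM in shScr vehicle cells, where it held 15.7%, 12.7% and 11.0% of the gene's FPKM. In shScr ATRA cells it was listed at 0, with an upper bound of 0.0396 FPKM, and NM_002728 held all 69.8 FPKM. With the higher model alone in place of the sum, the log2 ratio of PRG2 between shTFEB and shScr cells under ATRA was 2.26 in place of 2.51. GENCODE also annotates another protein-coding gene, AP000781.2, over PRG2 on the same strand.

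**Figure D2:**
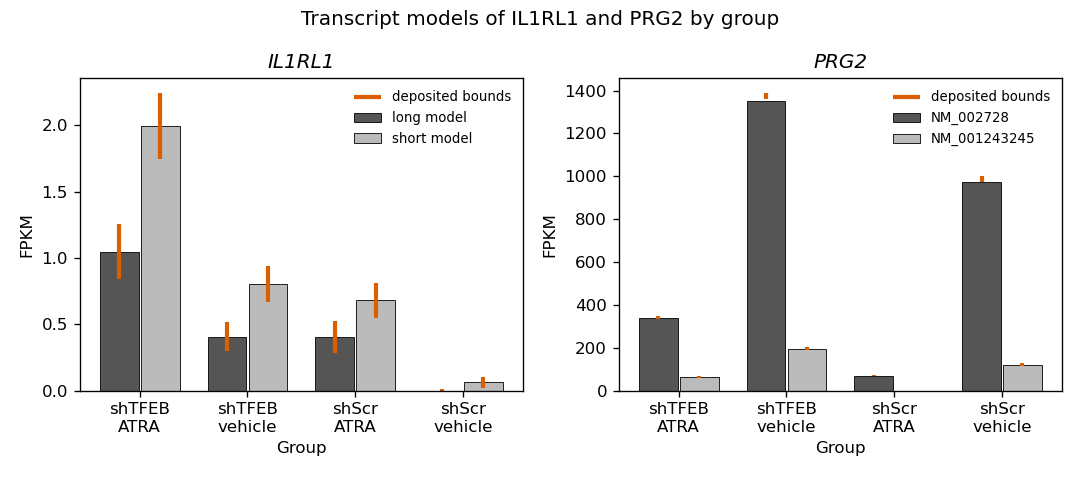
FPKM of the IL1RL1 models (left) and PRG2 models (right) in the 4 groups as bars from 0, with the deposited lower and upper bounds as vertical lines. The short IL1RL1 model exceeds the long one in every group, and the PRG2 model NM_001243245 is listed at 0 in shScr ATRA cells alone.

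The genes went in opposite directions under ATRA in both lines. In shTFEB cells 3 of the 9 compared genes rose (PRG3, CLC and PTGDR2) and 3 fell (PRG2, RNASE2 and HDC), where 11.5% of all compared genes rose and 10.5% fell. In shScr cells 2 rose (CLC and PTGDR2) and 4 fell (PRG2, RNASE2, RNASE3 and HDC), against 12.5% and 15.2% of all compared genes. Of all genes past the mark in shScr cells 45.2% were higher under ATRA, and 56.2% after median-of-ratios rescaling. The median log2 ratio of the 9 genes was −0.80 in shTFEB and −0.50 in shScr cells, beside −0.13 and −0.15 for all compared genes, medians that median-of-ratios rescaling shifted by 0.13 and 0.15. CLC had the highest ratio of the 9 in both lines, HDC the lowest in shTFEB cells and PRG2 the lowest in shScr cells. Summed over the 10 genes, the level was 1284 FPKM in shTFEB ATRA and 1847 FPKM in labelled shTFEB vehicle cells, and 180.2 FPKM in shScr ATRA and 1280 FPKM in shScr vehicle cells. In shTFEB cells the high level of CLC stood beside the fall of PRG2, whereas the sum in shScr ATRA cells was the lowest of the 4.

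**Figure D3:**
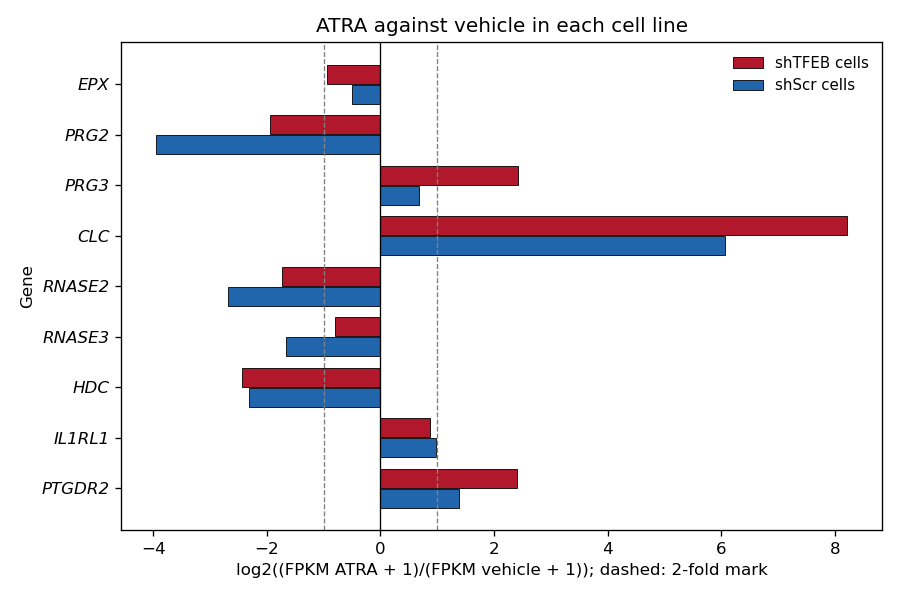
Log2 ratio of ATRA to vehicle for the 9 compared genes in shTFEB and shScr cells, with dashed lines at the 2-fold mark and no error bars, since each group has 1 value. CLC, PRG3, IL1RL1 and PTGDR2 lie to the right of 0 in both lines and the other 5 to the left.

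Between the lines the genes were mostly higher in the cells labelled shTFEB. Under ATRA 6 of the 9 passed the 2-fold mark upwards in shTFEB cells (EPX, PRG2, PRG3, CLC, HDC and PTGDR2) and none was lower, where 2.67% of all compared genes were higher and 1.58% lower. Their median log2 ratio was 2.34, beside 0.06 for all compared genes. Under vehicle 4 were higher in the labelled shTFEB group (EPX, CLC, HDC and IL1RL1) and none was lower, against 1.06% and 0.787% of all compared genes, with medians of 0.61 and 0.02. As the genes were chosen with these contrasts in view, the shares are given beside the background and nothing is read from them.

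**Figure D4:**
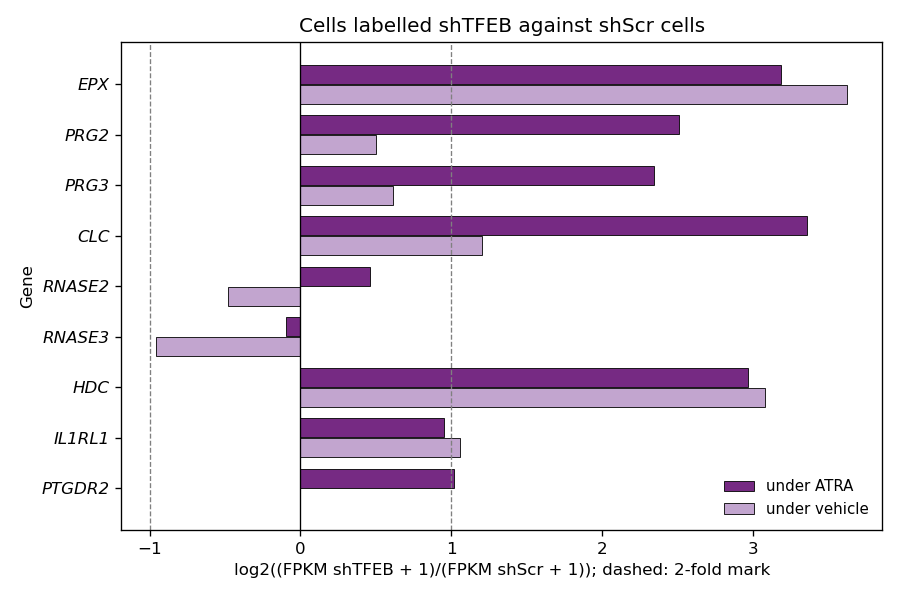
Log2 ratio of cells labelled shTFEB to shScr cells for the 9 compared genes under ATRA and under vehicle, with dashed lines at the 2-fold mark and no error bars. EPX and HDC lie near 3 or above under both treatments, PRG2, PRG3 and CLC are further apart under ATRA, and RNASE2 and RNASE3 stay inside the mark.

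The difference of the ATRA responses, shTFEB minus shScr, passed 1 on the log2 scale for CLC (2.15), PRG2 (2.01), PRG3 (1.73) and PTGDR2 (1.02), 4 of the 9 genes, where 2.42% of all compared genes did so in that direction and 1.86% in the other. It was 0.94 for RNASE2 and 0.86 for RNASE3, and −0.44 for EPX, −0.11 for HDC and −0.10 for IL1RL1. The HDC and IL1RL1 differences depend on the added amount: with 0.1 FPKM added they were 0.43 and −1.62, and with 5 FPKM added −0.91 and 0.11. The plain ratio of ATRA to vehicle for IL1RL1 was 2.51 in shTFEB and 17.7 in shScr cells, where the vehicle value was near 0. For PTGDR2 the difference was 0.99 and 0.97 after the rescalings and 0.49 with 5 FPKM added. The difference for CLC also changes with that amount. Without it the rise was 487-fold in shTFEB and 619.6-fold in shScr cells, where the vehicle value was near 0. With 0.1 FPKM added the difference was 0.44. The 4 comparisons share groups, so their values are set side by side without a measure of agreement.

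Deposited bounds were narrow beside most of these ratios but are not error bars of replicates. All 12 models of the 10 genes had the status OK in every group. Of 35 values above 0, 15 lay above their own upper bound and 1 below its lower bound. The FPKM exceeded the midpoint of its bounds by factors of 1.28 to 1.47 in CLC outside shScr vehicle cells, 1.34 to 1.36 in RNASE2 and 1.28 to 1.34 in RNASE3, and by at most 1.08 in EPX and HDC. In shScr vehicle cells the CLC value was near 0 and within its bounds. For each of the 9 genes past the mark in any of the 4 comparisons the bounds of the groups did not overlap. Among all compared genes 21.0% were past the mark with such bounds in ATRA against vehicle in shTFEB cells, 26.6% in shScr cells, 3.30% between the lines under ATRA and 1.10% under vehicle. The bounds of RNASE3 overlapped between shTFEB ATRA and shScr ATRA cells, at 2.52 to 3.80 and 2.77 to 4.14 FPKM.

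Genes with the most similar pattern were sought among 7780 genes with a mean of at least 5 FPKM, by the root mean square difference of log2(FPKM + 1) over the 4 group values after removing each gene's mean. ITM2A was closest to EPX at 0.15, with 9.56 FPKM in shTFEB ATRA, 26.1 FPKM in labelled shTFEB vehicle, 0.323 FPKM in shScr ATRA and 0.820 FPKM in shScr vehicle cells. The potassium channel gene KCNH2 was closest to both PRG2 (0.37) and HDC (0.60), followed for PRG2 by SLC27A2 (0.43) and RHEX (0.44). The interferon-stimulated genes OAS1 (0.48), IFI6 (0.52) and OAS3 (0.61) were closest to CLC, and TNFSF10 (0.12), IFITM1 (0.14) and BST2 (0.36) to PRG3. PTGDR2 was closest to ZNFX1 (0.08), TDRD7 (0.09) and APOL2 (0.10). RNASE2 was nearest to TRAP1 (0.09), RNASE3 to GLIPR2 (0.10) and IL1RL1 to GNG10 (0.21). With 4 values per gene such a likeness is a description alone. For genes with values near or under 1 FPKM the added 1 FPKM compresses ratios, so closeness on this scale is not a like fold. PTGDR2 was listed at 0 in both vehicle groups, where ZNFX1 stood at 5.62 FPKM in labelled shTFEB and 5.43 FPKM in shScr cells. In these groups IL1RL1 stood at 1.21 and 0.0614 FPKM and GNG10 at 22.6 and 11.7 FPKM.

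Other genes of these lineages gave a mixed picture. Between the lines 2.67% of all compared genes passed the mark upwards and 1.58% downwards in shTFEB cells under ATRA. Under vehicle the shares were 1.06% and 0.787%, and they stand beside the counts of each list below. Among 12 compared genes of a list of 20 further eosinophil genes, SIGLEC8, an inhibitory lectin of eosinophils and mast cells, was the one gene at least 2-fold higher in shTFEB ATRA than in shScr ATRA cells. SIGLEC8 stood at 4.52 FPKM in shTFEB ATRA, 0.507 FPKM in labelled shTFEB vehicle, 0.632 FPKM in shScr ATRA and 0.255 FPKM in shScr vehicle cells. The eotaxin receptor gene CCR3 rose under ATRA in both lines, to 6.05 FPKM in shTFEB ATRA cells against 0.101 FPKM in labelled shTFEB vehicle cells and to 3.79 FPKM in shScr ATRA cells against 0.0679 FPKM in shScr vehicle cells. The interleukin 5 receptor gene IL5RA was too low to be compared, at 0.171 FPKM in shTFEB ATRA, 1.13 FPKM in labelled shTFEB vehicle, 0.0135 FPKM in shScr ATRA and 0.0580 FPKM in shScr vehicle cells. Of the list, 7 genes rose and 1 fell under ATRA in shTFEB cells, where 11.5% of all compared genes rose and 10.5% fell. In shScr cells 5 rose and none fell, against 12.5% and 15.2% of all compared genes.

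Of 28 further basophil and mast cell genes 9 were high enough to be compared. Under ATRA GATA2 and LTC4S, the leukotriene C4 synthase, were past the mark upwards in shTFEB cells and none was lower, while under vehicle GATA2 was higher in the labelled shTFEB group and MS4A3 lower. LTC4S stood at 3.05 FPKM in shTFEB ATRA, 4.94 FPKM in labelled shTFEB vehicle, 0.715 FPKM in shScr ATRA and 2.08 FPKM in shScr vehicle cells. MS4A3 and FCER1G, the signalling chain of Fc receptors, had log2 ratios of −0.98 and −0.87 between shTFEB and shScr cells under ATRA. Against vehicle, FCER1G and HRH2 rose under ATRA in both lines, while GATA2, CTSG and MS4A3 fell. Of all compared genes 11.5% rose and 10.5% fell in shTFEB cells, and 12.5% and 15.2% in shScr cells. Defining markers of mast cells and basophils were low. FCER1A was listed at 0 in every group, KIT and ENPP3 did not exceed 0.1 FPKM, and the tryptase genes TPSAB1 and TPSB2 did not exceed 0.6 FPKM. MS4A2 stood at 0.232 FPKM in shTFEB ATRA, 0.446 FPKM in labelled shTFEB vehicle, 0.237 FPKM in shScr ATRA and 0.906 FPKM in shScr vehicle cells. In all, 7 of the 10 markers fixed for basophils and mast cells stayed under 1 FPKM in every group. The summed FPKM of that marker list, in which HDC is the largest entry except in shScr ATRA cells, where PTGDR2 is, ran at 24.7 in shTFEB ATRA, 99.0 in labelled shTFEB vehicle, 4.26 in shScr ATRA and 12.5 in shScr vehicle cells.

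Transcription factors of these lineages were compared for 21 of 26 genes, of which GATA1 and GATA2 were at least 2-fold higher in cells labelled shTFEB under both treatments and none was lower under either. With 5 FPKM added neither was past the mark under either treatment, and taking only its highest model GATA2 was not past it under vehicle. GATA1, needed for eosinophil development in mice, stood at 7.57 FPKM in shTFEB ATRA, 3.99 FPKM in labelled shTFEB vehicle, 1.86 FPKM in shScr ATRA and 1.04 FPKM in shScr vehicle cells. GATA2 stood at 3.48 FPKM in shTFEB ATRA, 21.9 FPKM in labelled shTFEB vehicle, 0.918 FPKM in shScr ATRA and 10.1 FPKM in shScr vehicle cells, and so fell under ATRA in both lines. GFI1B and CEBPA had log2 ratios of 0.95 and 0.89 between shTFEB and shScr cells under ATRA, inside the mark. CEBPE, a factor of late granulocyte and eosinophil maturation, rose under ATRA in both lines and was at 193 FPKM in shTFEB ATRA and 224 FPKM in shScr ATRA cells. No factor of the list differed between the lines in its ATRA response by 1 or more.

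**Figure D5:**
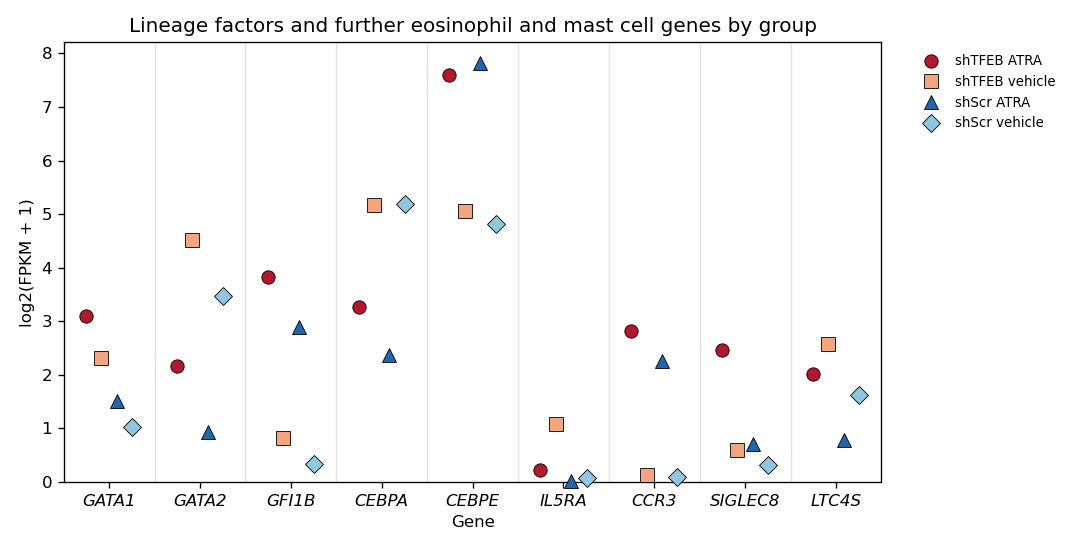
Level of 5 lineage factors and 4 further eosinophil and mast cell genes in the 4 groups as log2(FPKM + 1), 1 deposited value per point. GATA1 and GATA2 are higher in shTFEB than in shScr cells within each treatment, while CEBPE is close between the lines within each treatment.

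Receptor and mediator genes around the 10 were counted past the mark between the lines beside the shares of all compared genes. These were 2.67% higher and 1.58% lower under ATRA, and 1.06% and 0.787% under vehicle. Of 11 compared cytokine and alarmin receptor genes, IL18RAP was higher in shTFEB ATRA than in shScr ATRA cells (13.4 and 6.12 FPKM), and none passed the mark under vehicle. The IL18RAP ratio was no longer past the mark after either rescaling, with 5 FPKM added or with bound midpoints. Under vehicle the added 1 FPKM compresses the ratios of low genes. Without it CSF2RB, IL18RAP and IL18R1 were 6.76-, 3.31- and 2.39-fold higher in the labelled shTFEB group, each from a shScr value under 1 FPKM. CSF2RB stood at 1.18 FPKM in labelled shTFEB vehicle and 0.174 FPKM in shScr vehicle cells. IL4R was just short of the mark, at 7.94 FPKM in shTFEB ATRA and 16.9 FPKM in shScr ATRA cells, and was past it downwards after either rescaling. In the deposited models IL18R1 lies 10599 bases from IL1RL1. GENCODE, however, annotates IL18R1 over 40509 bases of IL1RL1 on the same strand. IL18R1 stood at 4.05 FPKM in shTFEB ATRA, 0.657 FPKM in labelled shTFEB vehicle, 4.17 FPKM in shScr ATRA and 0.275 FPKM in shScr vehicle cells. Of 6 compared genes of prostaglandin D2 and histamine handling, AOC1, which degrades histamine, was lower in shTFEB ATRA than in shScr ATRA cells (65.3 and 133 FPKM), and the noradrenaline-methylating enzyme gene PNMT was higher in the labelled shTFEB group under vehicle (9.55 and 2.16 FPKM). HRH2, PTGS1 and SLC18A2 had log2 ratios of −0.65, −0.31 and 0.30 between shTFEB and shScr cells under ATRA.

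Paralogues and neutrophil granule genes were likewise counted past the mark between the lines. Of all compared genes 2.67% were higher and 1.58% lower under ATRA, and 1.06% and 0.787% under vehicle. Of 9 compared paralogues and genome neighbours LGALS9 and IL18RAP were higher in shTFEB ATRA than in shScr ATRA cells, LGALS9 at 256 and 120 FPKM, and under vehicle LGALS3 was higher in the labelled shTFEB group and LGALS12 lower. SLC43A3, the neighbour of PRG2 on the other side from PRG3, and LGALS8 had log2 ratios of 0.41 and −0.30 between shTFEB and shScr cells under ATRA. CPB1, the neighbour of CPA3, was listed at 0 in every group. Of 11 compared primary granule genes, BPI, the bactericidal permeability protein, was the one gene past the mark between the lines under ATRA, at 105 FPKM in shTFEB and 345 FPKM in shScr cells, and none passed it under vehicle. Of 12 secondary granule genes, 4 were compared and none passed the mark between the lines under either treatment. The median log2 ratio between the lines under ATRA was 0.02 in the further eosinophil genes, 0.06 in the further basophil and mast cell genes, 0.01 in the receptors, −0.30 in prostaglandin and histamine handling, 0.06 in the transcription factors, −0.04 in paralogues and neighbours, 0.06 in primary and −0.17 in secondary granule genes, beside 0.06 for all compared genes.

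Of the 7 promyelocyte markers MPO, PRTN3, AZU1, CD33 and SPI1 were each above 12 FPKM in every group, while ELANE did not exceed 0.1 FPKM in any. CTSG stood at 0.0784 FPKM in shTFEB ATRA, 2.10 FPKM in labelled shTFEB vehicle, 0.0341 FPKM in shScr ATRA and 3.27 FPKM in shScr vehicle cells. The list summed to 865 FPKM in shTFEB ATRA and 2869 FPKM in labelled shTFEB vehicle cells, and to 993 FPKM in shScr ATRA and 4377 FPKM in shScr vehicle cells. In both lines 4 of its 6 compared genes fell under ATRA (MPO, PRTN3, AZU1 and CTSG) and SPI1 rose. Of all compared genes 10.5% fell and 11.5% rose in shTFEB cells, and 15.2% fell and 12.5% rose in shScr cells. PRG2, RNASE2 and HDC fell as well, and the part of these markers in those falls was not tested. The 9 eosinophil markers, 6 of them among the 10 genes, summed to 1271 FPKM in shTFEB ATRA, 1752 FPKM in labelled shTFEB vehicle, 181 FPKM in shScr ATRA and 1269.8 FPKM in shScr vehicle cells. The 4 fibroblast markers summed to at most 0.190 FPKM in any group, with COL1A2, COL3A1 and DCN listed at 0 in every group. The 4 platelet markers summed to 2.82 FPKM in shTFEB ATRA, 0.770 FPKM in labelled shTFEB vehicle, 0.532 FPKM in shScr ATRA and 0.188 FPKM in shScr vehicle cells, nearly all of it ITGA2B, with PF4 and GP9 listed at 0 in every group. They were thus higher in cells labelled shTFEB within each treatment, as EPX and HDC were, and their part in the result was not tested. The 4 monocyte markers summed to 46.4 FPKM in shTFEB ATRA, 1.47 FPKM in labelled shTFEB vehicle, 44.5 FPKM in shScr ATRA and 1.51 FPKM in shScr vehicle cells. The 4 B cell markers summed to 20.8 FPKM in shTFEB ATRA, 2.43 FPKM in labelled shTFEB vehicle, 18.9 FPKM in shScr ATRA and 2.58 FPKM in shScr vehicle cells. These lists were high in both ATRA groups, as CLC and PTGDR2 were, and their part in those responses was not tested. T cell markers, 4 of 5 measured, summed to at most 4.37 FPKM and epithelial markers to between 21.2 and 34.1 FPKM. Both sums were lower in the group labelled shTFEB than in shScr cells within each treatment, but no compared gene of either list passed the mark between the lines. KRT18 made up most of the epithelial sum. EPCAM went the other way, at 2.57 FPKM in shTFEB ATRA, 6.05 FPKM in labelled shTFEB vehicle, 1.77 FPKM in shScr ATRA and 4.31 FPKM in shScr vehicle cells. KRT8, CD3E and CD3G were also higher in shTFEB ATRA than in shScr ATRA cells.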

How the data were processed

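RNA sequencing of NB4 cells with a TFEB or a scrambled hairpin, under ATRA or ethanol, was used as deposited. The authors deposited for each transcript model an FPKM, a status, and bounds below and above the FPKM. The submitters' processing notes name TopHat, Cufflinks, Cuffdiff and hg19, and versions are not given in the sources used here. Each of the 4 deposited tables lists 65986 models with 1 value per group, and no source used here says how a group's 2 samples became that value. Absolute depth is not given. The depth relative to shScr vehicle was read from the steps of values under 0.1 FPKM.

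Names came from RefSeq's table for GRCh38.p14, used for nothing else, which matched 39841 of 41159 accessions (96.8%). FPKM and bounds were added up over a symbol's models, with no further normalisation. Symbols averaging 1 FPKM or more over the groups were compared as log2 ratios with 1 FPKM added, and a mark of 1 in size was counted; no test was run, and the ratio step was checked on simulated data. Starts in the files count from 0 (279 of 283 miRNA hairpins then have the RefSeq length), and printed coordinates count from 1. Upstream sequences are from a RefSeq table of GRCh38.p14. Transcript identity was computed with Biopython 1.88 on GENCODE transcripts, other steps with Python 3.11.15, pandas 2.3.3, NumPy 2.4.6 and matplotlib 3.10.9.

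Named genes were the 10 genes, TFEB, up to 4 compared genes per related list with the largest ratio between the lines under ATRA, those needed to account for small counts, the 3 closest patterns per gene (listed genes had to be above 0 in every group) and the cell type markers. CCDC86, RNASE2CP, MPO, IL5RA, CCR3, CEBPE, CSF2RB and IL18R1 were added after values were seen. The members and lists were chosen with earlier results of these data known. Ratios were recomputed with 0.1 or 5 FPKM added, without the filter or with one at 5 FPKM, after rescaling by upper quartiles or by median-of-ratios, with the highest model, with models of status OK alone, and with bounds that do not overlap. Leaving out genes listed at 0 and using bound midpoints were added after the data were seen. One further marker list is not reported here.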

Additional observations from a re-analysis of the deposited data

How the results depend on the processing

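Most counts of the 9 compared genes past the 2-fold mark stayed within 1.5 times their reported value under each alternative, and no ratio past the mark changed its direction. In ATRA against vehicle the exceptions were the genes that rose. In shTFEB cells, 3 rose as reported and 1 (CLC) with a mean of at least 5 FPKM. In shScr cells, 2 rose as reported, 4 with a pseudocount of 0.1 FPKM (IL1RL1 and PRG3 in addition), and 1 (CLC) with a pseudocount of 5 FPKM, with a mean of at least 5 FPKM, or without genes listed at 0. Between the lines under vehicle, 4 genes were higher as reported and 2 (EPX and HDC) with a pseudocount of 5 FPKM, and RNASE3 was the 1 gene lower with a pseudocount of 0.1 FPKM against 0 as reported. The causes of these shifts were not tested beyond the construction of the filters, which leave fewer genes. Of the related genes past the mark between the lines, SIGLEC8, GATA1, GATA2, LTC4S, IL18RAP and AOC1 under ATRA and GATA1, GATA2 and LGALS12 under vehicle were no longer past it with 5 FPKM added. MS4A3 and IL4R were past it downwards under ATRA after either rescaling, and MMP8 after median-of-ratios rescaling. Median-of-ratios rescaling changed the split of all compared genes under ATRA in shScr cells to 1612 higher and 1256 lower, against 1384 and 1676 as deposited. Over all compared genes a pseudocount of 5 FPKM gave 795 higher and 582 lower under ATRA in shTFEB cells (1270 and 1159 as reported), 873 and 949 in shScr cells, 170 and 101 between the lines under ATRA (295 and 175 as reported) and 70 and 48 under vehicle (117 and 87 as reported). Under vehicle the higher count was also 211 with 0.1 FPKM added and 56 without genes listed at 0. No paired analysis was possible because the tables hold 1 value per group; for the same reason no sample could be left out, and precision beyond the deposited bounds is unknown.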
